A study of Capra hircus with 9 samples.

Results

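The kinesins are motor proteins that turn ATP into movement along microtubules. The members described here are the rows of the gene count table whose symbol is KIF followed by a number and an optional letter, or KIFC followed by a number. The pattern found 39 of the 25671 rows. By their best known role, 13 were mitotic kinesins, 10 cargo-transport kinesins, 9 ciliary kinesins and 7 were put in none of these classes. No row carried the symbol KIF1A, but 2 rows named by a locus number were described in the table as KIF1A, and they are given separately from the 39.

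The samples were uterine tissue of Liaoning Cashmere goats (Capra hircus) at 3 peri-implantation time points, day 6, day 16 and day 19, with 3 libraries each. The event that day 0 stands for is not stated, and the series' design text words the same days as an age. No genotype, drug or surgery separates the groups in the labels, and no batch is named. The labels disagree on the tissue, which appears as uterus, as endometrial epithelium and, in the collection protocol, as testis. Of 10 testis germ cell markers, 7 had a row and 4 of these were at 0 in all 9 libraries. All 8 epithelial markers with a row, all 8 stromal fibroblast markers and all 8 smooth muscle markers were detected, so the libraries hold RNA of several tissue layers and not of epithelium alone. Poly(A) RNA was sequenced on an Ion Proton instrument and the authors deposited raw read counts per gene. Nothing in the labels ties the 3 libraries of a day to separate goats, so the p-values speak only of the spread between libraries.

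Mitotic kinesins build the spindle, move chromosomes and bring about cytokinesis, and their transcripts accumulate in cells that pass through G2 and mitosis. Transport kinesins carry vesicles, organelles and RNA through the cytoplasm of dividing and non-dividing cells. Ciliary kinesins drive intraflagellar transport, beat control and the hedgehog pathway, which in mammals is relayed through the primary cilium. The endometrium renews its epithelium and stroma over the cycle, and in ruminants it is remodelled around the time when the conceptus attaches. In bulk tissue, fewer cells of a type and less RNA per cell cannot be told apart. Row values were not divided by gene length, so levels are compared between days and not between genes.

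The libraries held 8712751 to 11074693 counts, and the kinesins took 0.102% to 0.116% of them on days 6 and 16. On day 19 they took 0.124% in replicate 1, 0.0631% in replicate 2 and 0.0621% in replicate 3, so the day 19 libraries fell on both sides of the other 6. Replicates 2 and 3 of day 19 also carried more ribosomal protein counts, at 6.61% and 5.64% of the library against 2.42% in replicate 1. Replicates 2 and 3 both lay below replicate 1 in 25 of the 39 kinesins and in 43.9% of all 16098 genes tested. Replicate 2 of day 6 was the lowest library of its day in 13 of 13 mitotic kinesins, against 35.5% of all genes tested. Counts of called kinesins are therefore also given without replicate 1 of day 19, as are those of partner lists. Leaving out that library lowers, by construction, the day 19 level of genes in which it is the highest. It raises that of genes in which it is the lowest.

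Of the 39 kinesins, 34 had enough counts to be tested: 10 mitotic, 10 transport, 8 ciliary and 6 others. A gene was called when its adjusted p in edgeR's quasi-likelihood test was under 0.05. The F test over the 3 days called 9 of the 34 kinesins, against 19.6% of all genes tested. The 9 were KIF2C and KIF20A among the mitotic, KIF5C, KIFC2 and KIFC3 among the transport, KIF3A and KIF7 among the ciliary and KIF12 and KIF21A among the others. From day 6 to day 16, KIF12 was the only kinesin called higher (5.12% of all genes tested), and KIF20A, KIF2C and KIF21A were called lower (3.74% of all genes tested). From day 16 to day 19, no kinesin was called higher by edgeR (0.516% of all genes), and KIF7 was called lower (0.683% of all genes). Higher there were 5 kinesins at an unadjusted p under 0.05, 4 in DESeq2 (5.67% of all genes) and 3 in voom (22%). Between days 6 and 19, KIF12, KIF5C, KIFC3 and KIF28P were called higher (12.7% of all genes) and KIF21A, KIF7, KIFC2 and KIF3A lower (10.2% of all genes). The 3 comparisons share libraries and are not independent of each other.

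**Figure D1:**
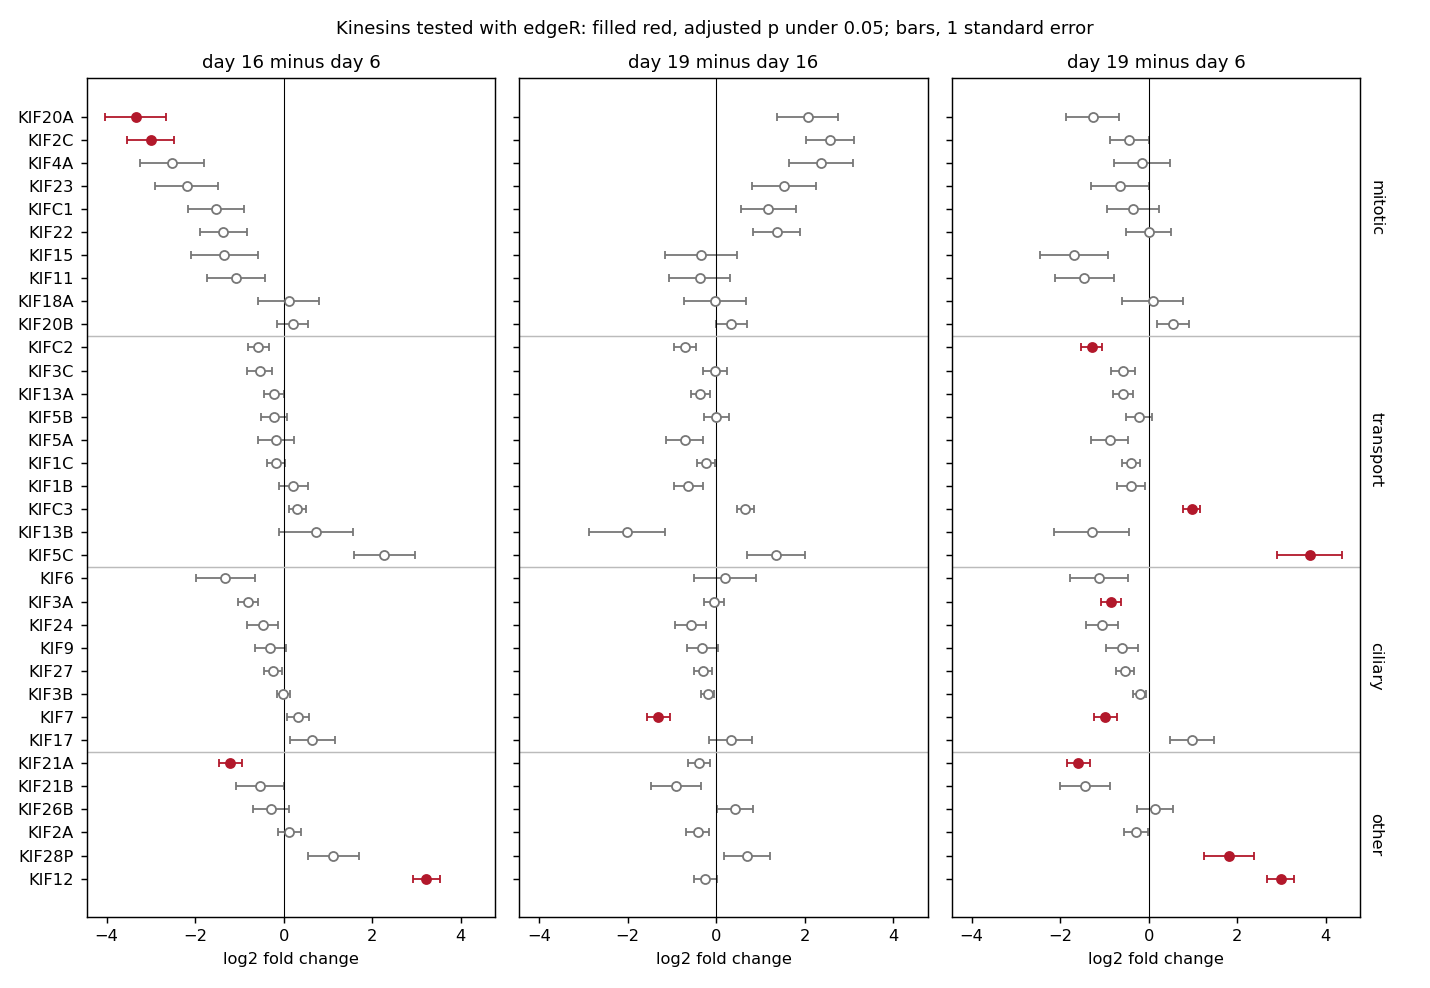
Log2 fold change of each of the 34 tested kinesins (x axis, log2 scale) in the 3 comparisons, ordered by class, with bars of 1 standard error and filled red points for an adjusted p under 0.05. Most mitotic kinesins lie left of 0 from day 6 to day 16 and right of 0 from day 16 to day 19, while KIF5C, KIFC3 and KIFC2 are the transport kinesins with filled points, all from day 6 to day 19.

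Among the mitotic kinesins, KIF20A and KIF2C fell from day 6 to day 16, and 8 of the 10 tested members had a lower fitted level on day 16. KIF20A brings the chromosomal passenger complex to the spindle midzone in cytokinesis. Its level was 7.98, 1.96 and 9.07 CPM (read counts scaled to library size with TMM factors) in the day 6 libraries. It was 0.316, 0.911 and 0.631 CPM on day 16 and 3.30, 3.295 and 1.27 CPM on day 19. Every day 16 library was below every library of the other days. On day 19, replicates 1 and 2 lay inside the day 6 range and replicate 3 below it. KIF20A fell 10.1-fold from day 6 to day 16 (log2 fold change -3.34, SE 0.69, adjusted p = 0.0159). Without replicate 1 or 3 of day 6, or replicate 1 or 3 of day 16, its adjusted p was between 0.0546 and 0.0733 and the call was lost, as it was in voom, limma's test on weighted log counts (0.0543). Between days 16 and 19, KIF20A had a log2 fold change of 2.07 (SE 0.69, adjusted p = 0.128), and from day 6 to day 19 one of -1.27 (adjusted p = 0.153).

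KIF2C, a microtubule depolymerase of centromeres that corrects faulty chromosome attachments, had the other decrease that was called. Its level was 3.06, 1.75 and 2.83 CPM on day 6, from 33, 17 and 29 counts. On day 16 it was 0.105, 0.456 and 0.361 CPM, from 1, 4 and 4 counts. On day 19 it was 1.55, 2.20 and 1.90 CPM, from 16, 22 and 18 counts. The 3 day 16 libraries lay below all 6 others, and days 6 and 19 overlapped. KIF2C fell 8.03-fold from day 6 to day 16 (log2 fold change -3.01, SE 0.53, adjusted p = 0.00761). This call held under all 16 alternatives run, with a highest adjusted p of 0.036. For day 19 against day 16, the log2 fold change was 2.57 (SE 0.54), and its adjusted p of 0.054 missed the threshold. With replicate 1 of day 19 left out it was 2.71 with an adjusted p of 0.00449.

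KIF4A, a chromokinesin of chromosome arms and the central spindle, and KIF23, the motor subunit of centralspindlin, had the same order of days without passing the test. KIF4A was at 4.64, 0.927 and 4.095 CPM on day 6, at 0.842, 0.570 and 0.270 CPM on day 16 and at 1.36, 3.89 and 3.49 CPM on day 19. KIF23 was at 3.62, 0.721 and 4.29 CPM on day 6, at 0.948, 0.570 and 0.361 CPM on day 16 and at 2.91, 1.30 and 1.27 CPM on day 19. For both genes the day 19 libraries were all above the day 16 libraries, while replicate 2 of day 6 lay near or within the day 16 range. Between days 6 and 16, the log2 fold change was -2.52 for KIF4A (SE 0.72, adjusted p = 0.0615) and -2.19 for KIF23 (SE 0.71, adjusted p = 0.0988). Without replicate 2 of day 6 both passed, with adjusted p of 0.031 for KIF4A and 0.0384 for KIF23, and without replicate 1 of day 19 they passed with 0.0227 and 0.0457. Replicate 2 was the lowest day 6 library of both genes, so leaving it out raises their day 6 level by construction. From day 16 to day 19 KIF4A had a log2 fold change of 2.37 (SE 0.72, adjusted p = 0.107), which passed without replicate 1 of day 19 (2.73, adjusted p = 0.0102).

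KIF11 and KIF20B did not have a day 16 level below those of both other days. KIF11 slides antiparallel microtubules apart to separate the spindle poles. It was at 3.90, 1.13 and 5.95 CPM on day 6, at 1.58, 2.85 and 0.811 CPM on day 16 and at 1.85, 1.40 and 0.740 CPM on day 19. Its ranges overlapped between all 3 days, and its log2 fold change was -1.08 from day 6 to day 16 (SE 0.66, adjusted p = 0.421) and -0.37 from day 16 to day 19 (SE 0.68, adjusted p = 0.746). KIF20B, a cytokinesis motor of the midbody, was the most counted mitotic member. It was at 8.26, 5.87 and 12.4 CPM on day 6, at 7.69, 10.7 and 12.2 CPM on day 16 and at 11.7, 18.1 and 9.10 CPM on day 19. These ranges overlapped as well, with a log2 fold change of 0.21 from day 6 to day 16 (SE 0.35, adjusted p = 0.84) and 0.55 from day 6 to day 19 (SE 0.35, adjusted p = 0.278).

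**Figure D2:**
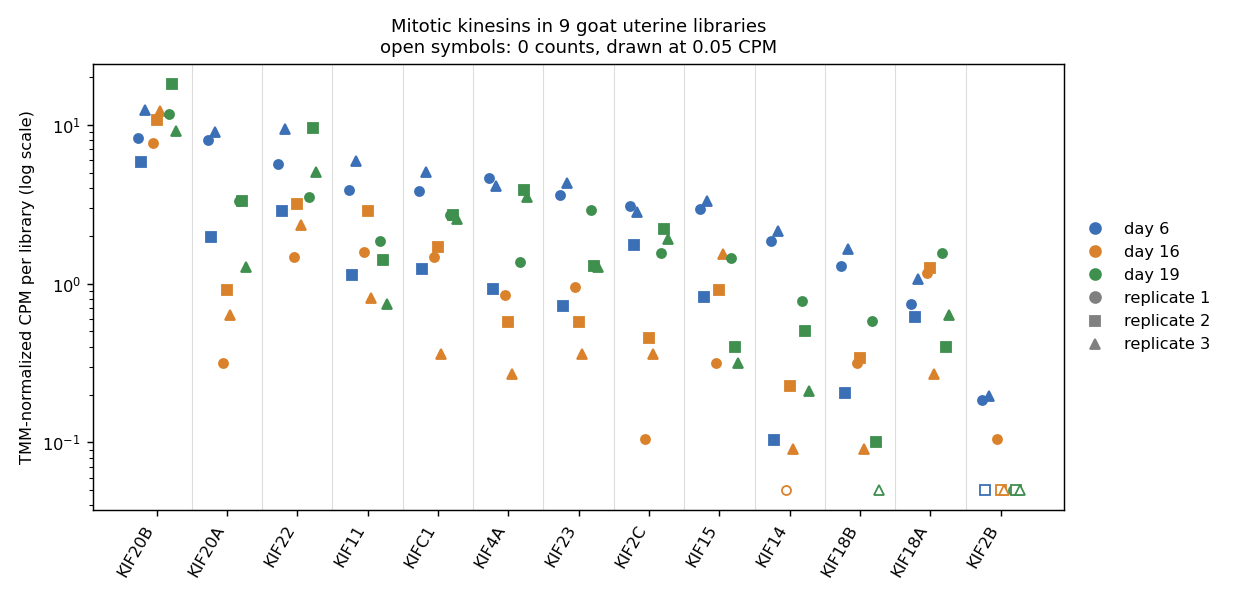
Level of each of the 13 mitotic kinesins in the 9 libraries (y axis, TMM-normalized CPM on a log scale), with color for the day, symbol shape for the replicate and open symbols for 0 counts drawn at 0.05 CPM. The day 16 libraries of KIF20A, from 0.316 to 0.911 CPM, and of KIF2C, from 0.105 to 0.456 CPM, sit below all other libraries of these genes, and the square of day 6, replicate 2, is the lowest blue symbol of every gene.

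The other mitotic kinesins were rarer or more spread. KIF22 (a chromokinesin that pushes chromosome arms away from the poles), KIFC1 (a minus-end motor that focuses spindle poles) and KIF15 (which holds the bipolar spindle beside KIF11) had mean levels between 2.37 and 6.00 CPM on day 6 and between 0.920 and 2.34 CPM on day 16. On day 19 their means were 6.02 CPM for KIF22, 2.65 CPM for KIFC1 and 0.725 CPM for KIF15, and none of the 3 was called. KIF18A, which dampens chromosome movements at the metaphase plate, had means of 0.811, 0.894 and 0.863 CPM on days 6, 16 and 19. KIF14, KIF18B and KIF2B had too few counts to be tested in all 9 libraries. KIF14, a cytokinesis motor that recruits citron kinase, had 20, 1 and 22 counts on day 6, 0, 2 and 1 on day 16 and 8, 5 and 2 on day 19. Pooled over libraries, its day 6 level was 13.7 times its day 16 level, with an exact 95% interval of 4.38 to 69.0 that covers counting error only. KIF18B, which shortens astral microtubules, had 14, 2 and 17 counts on day 6, 3, 3 and 1 on day 16 and 6, 1 and 0 on day 19. KIF2B, a spindle depolymerase, had 4 counts on day 6, 1 on day 16 and 0 on day 19.

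As a class, 2 of the 10 tested mitotic kinesins were called lower from day 6 to day 16, beside the 3.74% of all genes, and none was called higher. Their median log2 fold change was -1.44, and over all 13 members without a count filter it was -1.59, with 11 of 13 below 0, beside a median near 0 over all genes (-0.00). At an unadjusted p under 0.05, 6 were lower. DESeq2 called 5 lower (5.35% of all genes) and voom with sample weights called 1, KIF2C (11% of all genes). Without replicate 1 of day 19, 4 of 12 tested members were lower (9.67% of all genes). Without replicate 2 of day 6, 5 of 12 were lower (2.26% of all genes), which were KIF14, KIF20A, KIF23, KIF2C and KIF4A. That library was the lowest of day 6 in all 13 members, so leaving it out raises their day 6 level by construction. A member tested only because day 6 was high had to differ in this direction, so these counts describe the class and do not test it.

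Between days 16 and 19, no mitotic kinesin was called in either direction by edgeR, with 4 higher and 0 lower at an unadjusted p under 0.05. The median log2 fold change of the 10 was 1.27, beside 0.01 over all genes tested. DESeq2 called 3 higher (KIF20A, KIF2C and KIF4A, beside 5.67% of all genes higher and 4.78% lower), and voom called 2 higher (KIF2C and KIF4A, beside 22% higher and 23.3% lower). With replicate 1 of day 19 left out, edgeR called KIF4A, KIF2C and KIF22 higher, when 21.6% of all genes were higher and 23.1% lower. On day 19 relative to day 6, edgeR and DESeq2 called 0 of the 10, with 0 at an unadjusted p under 0.05, and voom called KIF15 lower (29% of all genes). Their median log2 fold change was -0.39. Without replicate 1 of day 19, KIF15 and KIF18B were called lower, 2 of 12 members beside 27% of all genes.

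The share of kinesin counts that came from the 13 mitotic members summarises the class within each library. It was 4.77% (Wilson 95% interval 4.38% to 5.18%), 1.65% (1.42% to 1.91%) and 5.55% (5.15% to 5.99%) on day 6. It was 1.43% (1.22% to 1.67%), 2.34% (2.05% to 2.68%) and 1.82% (1.60% to 2.08%) on day 16. It was 2.57% (2.31% to 2.85%), 6.27% (5.72% to 6.86%) and 3.81% (3.37% to 4.30%) on day 19. The intervals cover counting error only. On day 19 those of all 3 libraries were apart. On day 6 those of replicates 1 and 3 overlapped, and on day 16 that of replicate 3 overlapped both others. The mean ± SD was 3.99% ± 2.07 on day 6, 1.86% ± 0.459 on day 16 and 4.22% ± 1.88 on day 19 (n = 3 each). The day 16 libraries all lay below those of day 19, and replicate 2 of day 6 lay inside the day 16 range. The denominator moves too: on day 19 the transport kinesins summed to 1035 CPM in replicate 1 and to 487 and 506 CPM in replicates 2 and 3. The mitotic sum itself was 48.0, 18.2 and 61.5 CPM on day 6, 16.3, 23.7 and 19.3 CPM on day 16 and 33.2, 43.7 and 26.6 CPM on day 19.

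**Figure D3:**
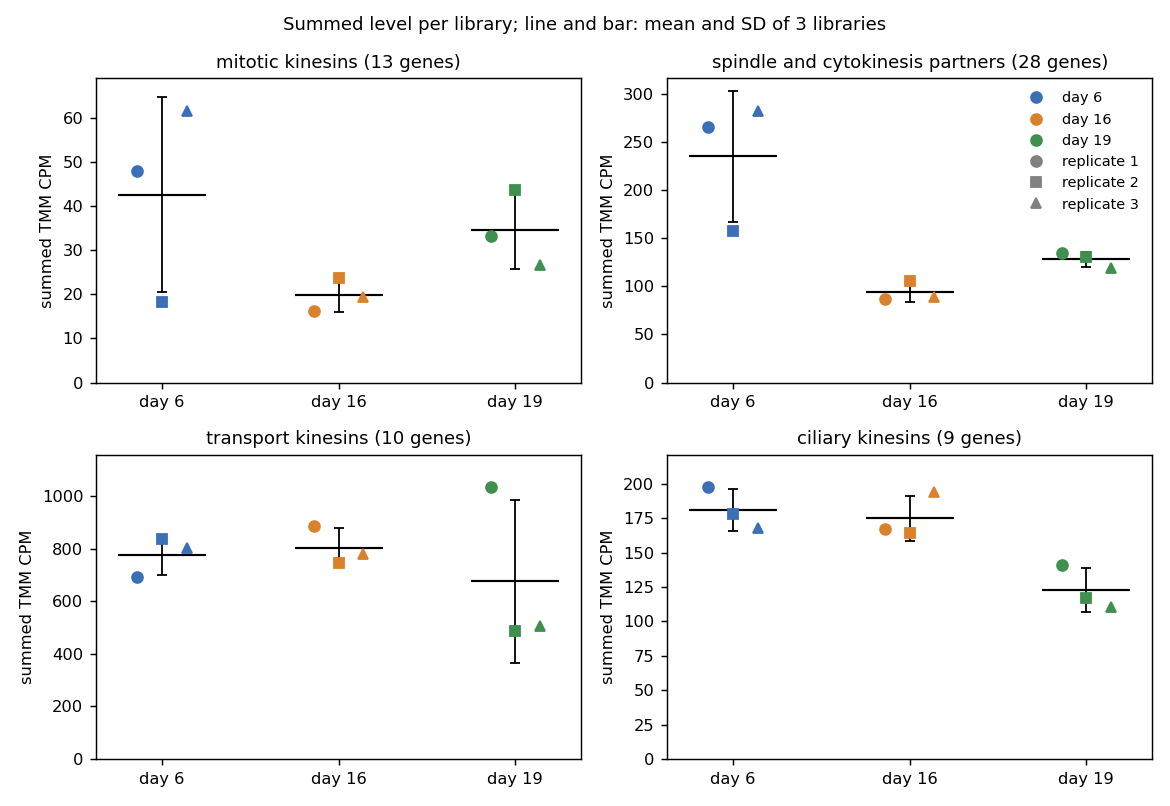
Summed level of 4 gene groups in each library (y axes, TMM-normalized CPM from 0), with the line and bar giving the mean and SD of the 3 libraries of a day. The mitotic kinesins and their spindle partners have their lowest means on day 16, replicate 2 of day 6 lies in the day 16 range for the mitotic kinesins and above it for the partners, while the transport kinesins of day 19 split into 1035 CPM and 487 to 506 CPM.

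Partners that work with the mitotic kinesins were listed from textbook knowledge, and 28 of 30 had a row: aurora kinases, checkpoint and kinetochore proteins, cytokinesis factors and CENPE, the kinesin of kinetochores that the name pattern leaves out. On day 16 relative to day 6, 8 of the 28 were called lower (3.74% of all genes) and 0 higher, with 16 lower and 0 higher at an unadjusted p under 0.05. DESeq2 called 11 lower (5.35% of all genes), voom 10 (11%) and edgeR without replicate 1 of day 19 called 12 (9.67%), and none of these called any higher. Their median log2 fold change was -1.37. The 4 with the smallest p were CCNB1 (cyclin B1, which drives entry into mitosis, -4.34, adjusted p = 0.000211), SPAG5 (a spindle protein also called astrin, -3.21, adjusted p = 0.00215), BIRC5 (survivin, a subunit of the chromosomal passenger complex, -4.08, adjusted p = 0.00623) and TTK (a spindle checkpoint kinase, -3.42, adjusted p = 0.0113). The TTK call was lost without replicate 3 of day 6 (adjusted p = 0.0545), replicate 1 of day 16 (0.0584) or replicate 3 of day 16 (0.0516).

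CCNB1 was at 69.8, 47.9 and 68.4 CPM on day 6, at 3.475, 2.05 and 3.61 CPM on day 16 and at 2.23, 2.60 and 1.06 CPM on day 19. Its day 19 libraries overlapped those of day 16, which was not so for KIF20A and KIF2C. It fell from day 6 to day 19 as well (-4.97, adjusted p = 8.64e-05), as did SPAG5 (-1.96, adjusted p = 0.00903) and CIT, the citron kinase that KIF14 recruits (-3.24, adjusted p = 0.00975). With replicate 1 of day 19 left out the log2 fold change of CIT was -4.85. PTTG1, the securin that inhibits the protease separating sister chromatids, rose (1.83, adjusted p = 0.0297). This call was lost without any one of the day 6 libraries or without replicate 2 or 3 of day 19 (adjusted p 0.0598 to 0.098). From day 6 to day 19, these 4 were all the calls of edgeR in the list, 1 higher and 3 lower (12.7% and 10.2% of all genes), with a median of -0.85. At an unadjusted p under 0.05, 1 was higher and 11 lower. DESeq2 called 1 higher and 5 lower (14.7% and 12.2% of all genes) and voom 2 higher and 12 lower (29.4% and 29%). In edgeR without replicate 1 of day 19, 2 were higher and 8 lower (27.2% and 27%). For day 19 against day 16, no spindle partner was called, with 7 higher and 1 lower at an unadjusted p under 0.05. DESeq2 and voom each called 2 higher and 1 lower there, beside 5.67% and 4.78% of all genes in DESeq2 and 22% and 23.3% in voom. In edgeR without replicate 1 of day 19, 4 were higher and 1 lower (21.6% and 23.1%). The median of the main fit was 0.64. Replicate 2 of day 6 was the lowest library of its day in 25 of these 28 genes.

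Genes of DNA replication and proliferation, 20 in all, had summed levels that overlapped between days, at 461.5 to 576.5 CPM on day 6, 397 to 469 CPM on day 16 and 484 to 632 CPM on day 19. From day 6 to day 16, UHRF1 (which keeps DNA methylation through replication, -2.15, adjusted p = 0.00785), TOP2A (topoisomerase II alpha, -3.25) and RRM2 (a ribonucleotide reductase subunit, -3.01) fell, and GINS2 (a helicase subunit, 1.57, adjusted p = 0.025) rose. The call of TOP2A (adjusted p = 0.0121) was lost without replicate 3 of day 6 or replicate 2 or 3 of day 16 (0.0519 to 0.0606), and its fold change without replicate 1 of day 16 was -3.89. The call of RRM2 (adjusted p = 0.0134) was lost without replicate 3 of day 6 or replicate 1 or 3 of day 16 (0.0528 to 0.0602), and that of GINS2 without any one of the 6 libraries compared (0.051 to 0.107). The 1 higher and 3 lower stood beside 5.12% and 3.74% of all genes, edgeR without replicate 1 of day 19 called 1 higher and 6 lower (10.7% and 9.67%), and the median of the 20 was -0.43. From day 16 to day 19 none was called, with 5 higher and 1 lower at an unadjusted p under 0.05. DESeq2 then called 2 higher (5.67% of all genes), and voom and edgeR without replicate 1 of day 19 each called 4 higher and 1 lower. The shares of all genes were 22% and 23.3% in voom and 21.6% and 23.1% in that edgeR fit. Between days 6 and 19, UHRF1 (-2.10, adjusted p = 0.00482) and CCNE2 (cyclin E2, -2.53, adjusted p = 0.0182) fell, the latter not without replicate 3 of day 6 (0.0794) or replicate 2 or 3 of day 19 (0.0622 and 0.056). These 2 of 20 stood beside 10.2% of all genes, and edgeR without replicate 1 of day 19 called 2 higher and 6 lower (27.2% and 27%).

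Summed cell type markers also differed between these libraries. The 8 smooth muscle markers summed to 7445, 25666 and 20760 CPM on day 6, 17037 to 18136 CPM on day 16 and 21396 to 36128 CPM on day 19. The 8 fibroblast markers summed to 28096 to 30969 CPM on day 6, 16748 to 21215 CPM on day 16 and 17920 to 27057 CPM on day 19. The fibroblast sums of day 6 were all above those of the later days. The 7 macrophage markers summed to 302 to 694 CPM on day 6, 514.5 to 783 CPM on day 16 and 909 to 1426 CPM on day 19. Endothelial markers, 7 genes, summed to 870 to 1082 CPM on day 6, 1120 to 1405 CPM on day 16 and 664 to 782 CPM on day 19. These ranges did not overlap. Over the 9 libraries, 8 T and NK lymphocyte markers summed to 116 to 202 CPM, and the 3 trophoblast markers with a row to 1.59 to 6.18 CPM. The part of cell makeup in the mitotic values was not tested.

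No transport kinesin was called between days 6 and 16, and on day 19 several of them split the libraries of that day. KIF1B, which carries mitochondria and vesicles, was at 258, 279 and 266 CPM on day 6, at 357, 255 and 324 CPM on day 16 and at 324, 132 and 150.2 CPM on day 19. KIF5B, the widely expressed heavy chain of conventional kinesin, was at 105, 140 and 131 CPM on day 6, at 118, 99.8 and 105 CPM on day 16 and at 167, 85.1 and 72.8 CPM on day 19. Replicate 1 of day 19 lay within the day 16 range for KIF1B and above it for KIF5B, and in both genes replicates 2 and 3 lay below every library of days 6 and 16. With all libraries the log2 fold change from day 16 to day 19 was -0.63 for KIF1B (SE 0.32, adjusted p = 0.252) and 0.01 for KIF5B (SE 0.29, adjusted p = 0.989). Without replicate 1 of day 19 both were called lower, KIF1B at -1.13 (adjusted p = 0.000538) and KIF5B at -0.43 (adjusted p = 0.0399). Replicate 1 was the highest day 19 library of both genes, so leaving it out lowers their day 19 level by construction.

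KIF5C is a heavy chain of conventional kinesin best known from neurons, and it had the largest fitted change of the 10 transport members with all 9 libraries. It was at 7.33, 8.855 and 6.34 CPM on day 6, at 32.0, 63.6 and 13.97 CPM on day 16 and at 194, 44.7 and 41.4 CPM on day 19. The day 6 libraries were close together and below all others, while days 16 and 19 overlapped and replicate 1 of day 19 stood more than 3 times above the next library. KIF5C rose 12.4-fold from day 6 to day 19 (log2 fold change 3.64, SE 0.73, adjusted p = 0.00766), and without replicate 1 of day 19 the rise was 5.78-fold (2.53, adjusted p = 0.00468). Between days 6 and 16, the log2 fold change was 2.28 (SE 0.70) with an adjusted p of 0.0793, which passed without replicate 1 of day 19 (0.0157) and in DESeq2 (0.00468). The 12 neuron and glia markers summed to 43.8 to 75.3 CPM on day 6, 32.5 to 57.1 CPM on day 16 and 27.3 to 68.8 CPM on day 19. These ranges overlapped, and the part of neurons and glia in the KIF5C values was not tested. KIF5A, KIF5B and KIF5C resemble each other in sequence, and the handling of reads shared between such genes is not given. KIF5A, also a neuronal heavy chain, had means of 7.45, 6.61 and 4.05 CPM on days 6, 16 and 19 and was not called.

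KIFC3 and KIFC2 are minus-end directed motors, and they changed in opposite directions. KIFC3, which moves apical vesicles and acts at cell junctions, was at 17.5, 14.4 and 17.5 CPM on day 6, at 20.1, 24.1 and 17.1 CPM on day 16 and at 34.9, 29.3 and 32.7 CPM on day 19. All day 19 libraries were above all others. KIFC3 rose 1.96-fold from day 6 to day 19 (log2 fold change 0.97, SE 0.20, adjusted p = 0.00795). Between days 16 and 19, its log2 fold change of 0.66 (SE 0.20, adjusted p = 0.104) missed the threshold and passed without replicate 1 of day 19 (0.61, adjusted p = 0.0197). KIFC2, first described as a carrier of neuronal vesicles, was at 12.6, 10.4 and 12.1 CPM on day 6, at 8.21, 7.18 and 8.11 CPM on day 16 and at 4.47, 3.99 and 5.92 CPM on day 19. Its 3 days did not overlap, and it fell 2.44-fold from day 6 to day 19 (log2 fold change -1.29, SE 0.24, adjusted p = 0.00568). The calls of KIF5C, KIFC3 and KIFC2 from day 6 to day 19 held under all 16 alternatives.

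**Figure D4:**
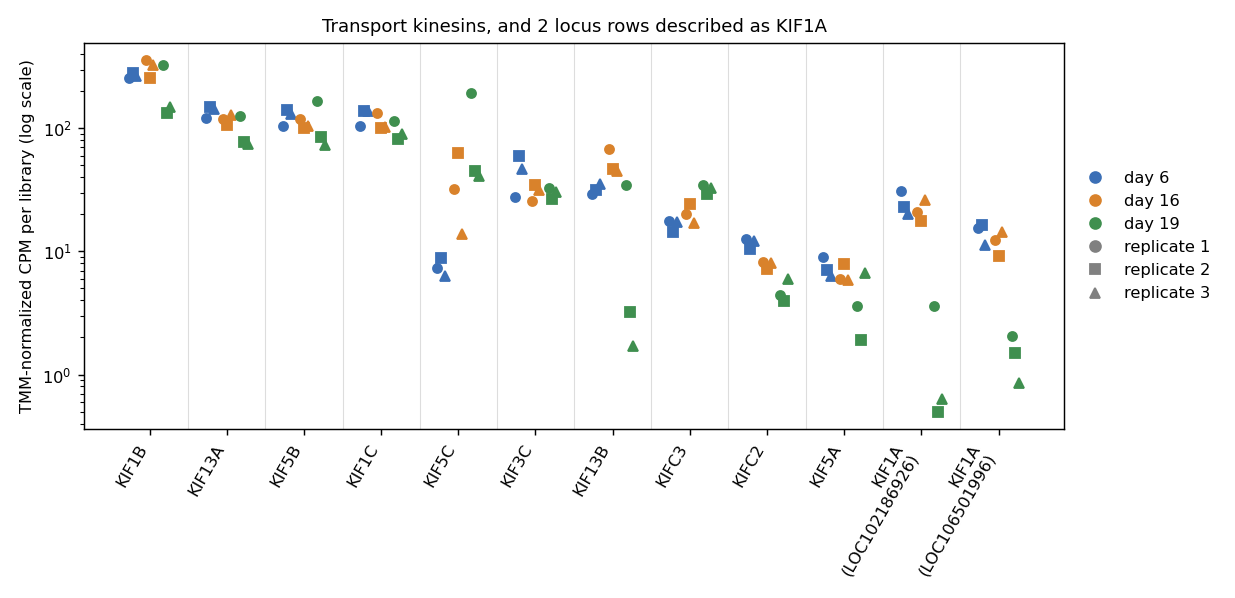
Level of each of the 10 transport kinesins and of the 2 locus rows described as KIF1A in the 9 libraries (y axis, TMM-normalized CPM on a log scale), with color for the day and symbol shape for the replicate. KIF5C is lowest on day 6, at 6.34 to 8.855 CPM, KIFC2 steps down with each day, and replicates 2 and 3 of day 19 sit far below the rest for KIF13B, at 3.195 and 1.69 CPM.

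KIF13B, a carrier of membrane vesicles, falls outside the rule for named genes and was singled out after its values were seen. It was at 29.2, 31.3 and 35.6 CPM on day 6, at 67.3, 47.0 and 45.0 CPM on day 16 and at 34.4, 3.195 and 1.69 CPM on day 19. Replicate 1 of day 19 matched day 6, and replicates 2 and 3 were about an order of magnitude lower than any other library. With all 9 libraries its log2 fold change from day 16 to day 19 was -2.02 (SE 0.86, adjusted p = 0.191), and DESeq2 gave no adjusted p for it. Voom, which weights libraries, gave -4.35 with an adjusted p of 0.000134. With replicate 1 of day 19 left out it was -4.41 (adjusted p = 2.47e-05). That library was the highest of day 19 for KIF13B, so leaving it out lowers the day 19 level by construction. KIF13A, its close relative, had means of 138, 118 and 92.2 CPM on days 6, 16 and 19, KIF1C, a vesicle carrier, 127, 112 and 95.8 CPM, and KIF3C, a kinesin-2 subunit, 44.7, 30.7 and 30.01 CPM. None of these 3 was called with all libraries.

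KIF1A, the neuronal carrier of synaptic and dense-core vesicle precursors, is described in the table at LOC102186926 and at LOC106501996. The RefSeq gene table of assembly ARS1.2 gives the symbol KIF1A to LOC106501996 only. LOC102186926 was at 31.2, 23.1 and 20.2 CPM on day 6, at 20.7, 17.8 and 26.1 CPM on day 16 and at 3.59, 0.499 and 0.635 CPM on day 19. LOC106501996 was at 15.5, 16.4 and 11.3 CPM on day 6, at 12.3, 9.11 and 14.5 CPM on day 16 and at 2.04, 1.498 and 0.846 CPM on day 19. In both rows days 6 and 16 overlapped and every day 19 library was below every other library. On day 19 relative to day 6, LOC102186926 fell 15.5-fold (log2 fold change -3.95, SE 0.61, adjusted p = 0.00215) and LOC106501996 fell 9.73-fold (-3.28, SE 0.36, adjusted p = 0.000431). Both calls held under all 16 alternatives, and without replicate 1 of day 19 the fall of LOC102186926 was 42.7-fold.

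For day 19 against day 16, both KIF1A rows fell too, LOC102186926 by a log2 fold change of -3.75 (SE 0.60, adjusted p = 0.0377) and LOC106501996 by one of -3.02 (SE 0.36, adjusted p = 0.0215). The call of LOC102186926 was lost without any one of the libraries other than replicate 1 of day 19 (adjusted p 0.0747 to 0.17), and without that library its fall was 37.1-fold. The call of LOC106501996 was lost without replicate 2 or 3 of day 6, replicate 1 or 3 of day 16 or replicate 2 or 3 of day 19 (0.0565 to 0.0974), and both with only the 6 libraries compared (0.157 and 0.14). KIF5C and KIF1A, both known from neurons, thus went in opposite directions between days 6 and 19. The sum of the 12 neuron and glia markers overlapped between all days, with ELAVL4 and GAP43 at 0 to 4 counts in every library. Of these markers only SNAP25, a synaptic membrane fusion protein, was called on day 19 against day 6. It was lower (-0.93, adjusted p = 0.0427), a call lost without replicate 2 or 3 of day 6, any library of day 16 or replicate 2 of day 19 (0.0619 to 0.144). Of the 8 tested markers, 4 had a positive and 4 a negative log2 fold change in this comparison. SNAP25 was also called lower on day 16 than on day 6, when neither KIF1A row was called. Its log2 fold change there was -1.4 to -1.13 over the 16 alternatives, of which 5 lost the call. The part of neurons and glia in the values of the KIF1A rows was not tested. KIF16B, an early endosome carrier found under a locus number, had means of 29.8 CPM on day 6, 26.6 CPM on day 16 and 20.6 CPM on day 19 and was not called.

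None of the 10 transport kinesins was called from day 6 to day 16, with 1 higher and 1 lower at an unadjusted p under 0.05 and a median log2 fold change of -0.17. DESeq2 called KIF5C higher (6.96% of all genes). Voom called KIF13B and KIF5C higher (12.5% of all genes) and KIFC2 lower (11%). Without replicate 1 of day 19, KIF5C and KIF13B were called higher (10.7% of all genes). From day 16 to day 19 none was called either, with 1 higher and 2 lower at an unadjusted p under 0.05 and a median of -0.29. DESeq2 called KIFC3 higher (5.67% of all genes), and voom called 1 higher and 4 lower (22% and 23.3%). With replicate 1 of day 19 left out, KIFC3 was higher and KIF13A, KIF13B, KIF1B and KIF5B lower (21.6% and 23.1% of all genes). From day 6 to day 19, 2 were higher and 1 lower (12.7% and 10.2% of all genes), with a median of -0.49. DESeq2 gave the same numbers (14.7% of all genes higher and 12.2% lower), and voom called 2 higher and 7 lower (29.4% and 29% of all genes). Without replicate 1 of day 19, 2 were higher and 6 lower (27.2% and 27% of all genes). Replicates 2 and 3 of day 19 both lay below replicate 1 in 8 of the 10 transport kinesins and both above it in 0. Over all genes tested these shares were 43.9% and 44.2%. Leaving replicate 1 out thus lowers the day 19 level of those 8 by construction.

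The medians of both classes can be set side by side as a description. On day 16 relative to day 6, it was -1.44 over the 10 tested mitotic kinesins and -0.17 over the 10 transport kinesins. Between days 16 and 19, it was 1.27 and -0.29, and from day 6 to day 19 it was -0.39 and -0.49. All 39 kinesins had medians of -0.26, -0.12 and -0.48 over the 34 tested members in the same order.

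Kinesin light chains and cargo adaptors link these motors to their loads, and 20 of 23 listed genes had a row. KLC2, a light chain, fell from day 6 to day 16 (-0.98, adjusted p = 0.00896) and to day 19 (-1.12, adjusted p = 0.00261). It was at 30.5, 37.0 and 31.4 CPM on day 6 and at 14.4 to 18.7 CPM in the other 6 libraries. KLC1, another light chain, rose from day 6 to day 19 (0.78, adjusted p = 0.0121), although not without replicate 1 of day 6 (0.0527). The light chains thus moved apart: KLC1 was at 85.5 to 116 CPM on day 6 and at 165 to 197 CPM on day 19. TRAK1, which links kinesin-1 to mitochondria, rose from day 6 to day 16 (0.75, adjusted p = 0.0438) and fell from day 16 to day 19 (-1.05, adjusted p = 0.0468). The rise was lost without any one of the 6 libraries compared or replicate 2 of day 19 (0.0549 to 0.185), and the fall without any one library other than replicate 1 of day 19 (0.0791 to 0.175).

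FEZ2, a kinesin-1 adaptor, rose from day 16 to day 19 (1.08, adjusted p = 0.0468) and from day 6 to day 19 (1.03, adjusted p = 0.00666). The first call was lost without any one library other than replicate 1 of day 19 (0.0791 to 0.175), and the second held under all 16 alternatives. MAPK8IP3, a scaffold that joins kinesin-1 to JNK signalling, fell from day 6 to day 19 (-0.87, adjusted p = 0.0166), although not without replicate 3 of day 6 (0.0693) or replicate 2 of day 19 (0.0615). In all, 1 adaptor was called higher and 1 lower from day 6 to day 16, the same numbers from day 16 to day 19, and 2 higher and 3 lower from day 6 to day 19 (12.7% and 10.2% of all genes). The first of these stood beside 5.12% higher and 3.74% lower of all genes, and the second beside 0.516% and 0.683%. In the fit without replicate 1 of day 19 the counts were 3 and 3, 5 and 5, and 5 and 6. All genes there gave 10.7% higher and 9.67% lower in the first, 21.6% and 23.1% in the second and 27.2% and 27% in the third. The medians of the 20 adaptors in the main fit were 0.03, 0.03 and 0.00. The day 16 to 19 calls of TRAK1 and FEZ2 were also lost with only the 6 libraries compared (0.162 for each), and the TRAK1 rise with no count filter (0.0542).

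Cytoplasmic dynein, the minus-end motor that works against most kinesins, and its cofactor dynactin had 21 genes in the table. DYNC1I1, an intermediate chain, fell from day 6 to day 16 (-1.08, adjusted p = 0.0479) and to day 19 (-0.95, adjusted p = 0.0399). The first call was lost without any library but replicates 3 of day 16 and 1 of day 19 (0.0573 to 0.201), and the second without any library of day 6, replicate 1 of day 16 or replicate 2 or 3 of day 19 (0.0504 to 0.158). DYNC2H1, the heavy chain that returns cargo from the ciliary tip, fell from day 6 to day 19 (-1.45, adjusted p = 0.009) under all 16 alternatives. DYNLL1, a light chain, rose (0.90, adjusted p = 0.0297), although not without any one library of day 6 or replicate 2 or 3 of day 19 (0.0725 to 0.105). DCTN6, a dynactin subunit, rose (0.86, adjusted p = 0.0374), although the call was lost without any one library of days 6 and 16 or replicate 2 of day 19 (0.0531 to 0.135). For day 19 against day 16, no gene of this list was called, with 6 higher and 1 lower at an unadjusted p under 0.05, 2 higher and 1 lower in DESeq2 (5.67% and 4.78% of all genes) and 10 higher and 4 lower in voom (22% and 23.3%). The edgeR counts were 1 lower from day 6 to day 16 (3.74% of all genes) and 3 higher and 2 lower from day 6 to day 19 (12.7% and 10.2%). Without replicate 1 of day 19 they were 3 lower from day 6 to day 16 (9.67% of all genes). That fit called 10 higher and 4 lower from day 16 to day 19 (21.6% and 23.1%). It called 8 higher and 6 lower from day 6 to day 19 (27.2% and 27% of all genes).

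Of the ciliary kinesins, KIF7 and KIF3A fell by day 19. KIF7 works at the tip of the primary cilium, where it regulates the GLI factors of hedgehog signalling. It was at 60.9, 43.8 and 47.5 CPM on day 6, at 54.3, 62.0 and 73.7 CPM on day 16 and at 35.5, 19.6 and 22.003 CPM on day 19. Every day 19 library was below every other library, and days 6 and 16 overlapped. KIF7 fell 2.47-fold from day 16 to day 19 (log2 fold change -1.30, SE 0.26, adjusted p = 0.0492) and 1.97-fold from day 6 to day 19 (-0.98, SE 0.26, adjusted p = 0.023). The first call was lost without any one library other than replicate 1 of day 19 (adjusted p 0.0791 to 0.187), and with only the 6 libraries compared it had an adjusted p of 0.162. The second was lost without replicate 1 or 3 of day 6 or replicate 2 or 3 of day 19 (0.0602 to 0.0873), and with only those 6 libraries (0.0625).

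KIF3A and KIF3B are the motor subunits of the heterotrimeric kinesin-2 that carries intraflagellar transport trains outwards. KIF3A was at 20.0, 27.7 and 21.7 CPM on day 6, at 12.4, 12.1 and 15.2 CPM on day 16 and at 15.5, 12.6 and 10.5 CPM on day 19. The day 6 libraries were above the 6 others, which overlapped. KIF3A fell 1.80-fold from day 6 to day 19 (log2 fold change -0.84, SE 0.23, adjusted p = 0.0254), and the call was lost without replicate 2 or 3 of day 6 or replicate 2 or 3 of day 19 (adjusted p 0.0671 to 0.108), and with only the 6 libraries compared (0.066). For day 16 against day 6, the log2 fold change was -0.80 (SE 0.23, adjusted p = 0.0579), and it passed without replicate 1 of day 19 (0.0127). KIF3B, with which KIF3A pairs, was the most counted ciliary member and had a narrow range. It was at 63.7, 60.2 and 59.6 CPM on day 6, at 63.1, 55.7 and 63.6 CPM on day 16 and at 56.0, 55.0 and 48.2 CPM on day 19. Its log2 fold change was -0.01 from day 6 to day 16 (SE 0.15, adjusted p = 0.987) and -0.20 from day 6 to day 19 (SE 0.15, adjusted p = 0.33).

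The remaining ciliary kinesins were not called with all 9 libraries. KIF27, a relative of KIF7 in motile cilia, had means of 26.4, 22.3 and 18.2 CPM on days 6, 16 and 19. KIF24, a centriole depolymerase that restrains cilium formation, had means of 8.85, 6.38 and 4.26 CPM, and KIF17, a motor of cilia and dendrites, 1.96, 3.09 and 3.90 CPM. KIF9 and KIF6, motors of motile cilia, had means of 5.61, 4.55 and 3.68 CPM and of 2.14, 0.833 and 0.977 CPM. With replicate 1 of day 19 left out, KIF24 was lower from day 16 to day 19 (-0.96, adjusted p = 0.0363), and from day 6 to day 19 KIF24 and KIF27 were lower and KIF17 higher. KIF19, which limits the length of motile cilia, was not tested and had 20, 7 and 6 counts on day 6, 0, 0 and 11 on day 16 and 0, 1 and 0 on day 19. Pooled over libraries, its day 6 level was 31.9 times its day 19 level (exact 95% interval 5.35 to 1300, for counting error only), and 20 of its 33 day 6 counts came from 1 library.

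By class, 0 of the 8 tested ciliary kinesins were called from day 6 to day 16, with 0 higher and 1 lower at an unadjusted p under 0.05. DESeq2 and voom called KIF3A lower there (5.35% and 11% of all genes), and the median of the main fit was -0.27. From day 16 to day 19, 1 was lower (0.683% of all genes) with a median of -0.25, and from day 6 to day 19, 2 were lower with a median of -0.73. The 2 of 8 stood beside 10.2% of all genes. DESeq2 called 4 lower in the last comparison (12.2% of all genes), voom called 4 lower and 1 higher (29% and 29.4%), and edgeR without replicate 1 of day 19 called 4 lower and 1 higher of 9 (27% and 27.2%). The latter fit called 1 lower from day 6 to day 16 (9.67%) and 2 lower from day 16 to day 19 (23.1%). The 12 ciliated cell markers were all detected and summed to 115.5, 58.1 and 41.8 CPM on day 6, 27.2, 27.0 and 68.5 CPM on day 16 and 35.6, 40.6 and 42.6 CPM on day 19. FOXJ1, the regulator that defines motile ciliated cells, had 4 to 38 counts a library, and of the markers DNAH9, an outer arm dynein, was lower on day 19 than on day 6 (-2.26, adjusted p = 0.0106). Replicate 3 of day 16, which held all 11 KIF19 counts of that day, was also the highest day 16 library in this sum. The part of ciliated cells in the values of KIF19, KIF6 and KIF9 was not tested.

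The intraflagellar transport particle, which kinesin-2 carries, had 18 of 19 listed genes in the table. Between days 6 and 16, 0 were called, with 0 at an unadjusted p under 0.05 and 0 in DESeq2 and voom. Between days 16 and 19, 0 were called, with 3 higher and 2 lower at an unadjusted p under 0.05, 2 lower in DESeq2 (4.78% of all genes) and 5 higher and 2 lower in voom (22% and 23.3%). Between days 6 and 19, IFT20 (0.88, adjusted p = 0.0254) and IFT52 (0.55, adjusted p = 0.0487) rose and IFT140 (-0.66, adjusted p = 0.0259) fell. These 2 higher and 1 lower of 18 stood beside 12.7% and 10.2% of all genes. With all but replicate 1 of day 19 edgeR called 1 higher from day 6 to day 16 (10.7% of all genes). That fit called 6 higher and 2 lower from day 16 to day 19 (21.6% and 23.1%). It called 5 higher and 4 lower from day 6 to day 19 (27.2% and 27% of all genes). IFT20 and IFT52 are subunits of complex B of the particle and IFT140 of complex A. The call of IFT20 was lost without any one library of day 6 or replicate 2 or 3 of day 19 (0.0604 to 0.0903), that of IFT52 without any one library other than replicate 1 of day 19 (0.0751 to 0.154) and that of IFT140 without any one library of day 6 or replicate 2 of day 19 (0.0649 to 0.0952).

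**Figure D5:**
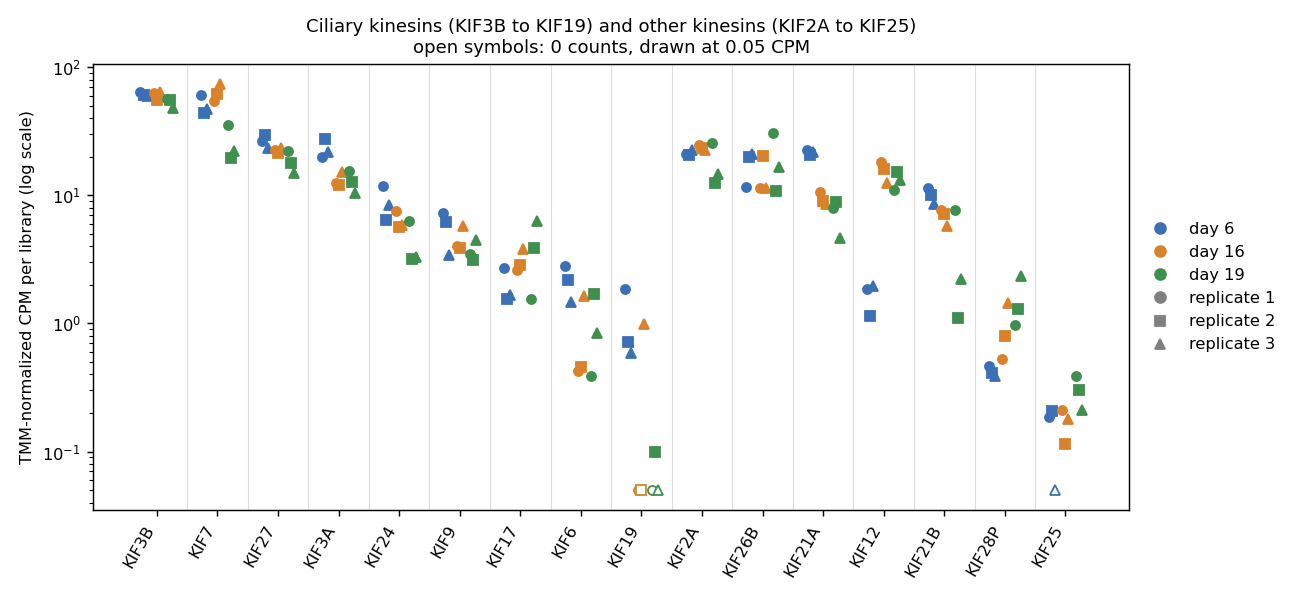
Level of the 9 ciliary kinesins and the 7 other kinesins in the 9 libraries (y axis, TMM-normalized CPM on a log scale), with color for the day, symbol shape for the replicate and open symbols for 0 counts drawn at 0.05 CPM. KIF12 is at 1.13 to 1.95 CPM on day 6 and at 10.98 to 18.3 CPM later, KIF21A is highest on day 6, and KIF3B stays between 48.2 and 63.7 CPM.

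KIF12, an epithelial kinesin of the kinesin-12 family, had the smallest p of all 34 tested kinesins from day 6 to either later day. It was at 1.86, 1.13 and 1.95 CPM on day 6, at 18.3, 15.9 and 12.4 CPM on day 16 and at 10.98, 15.3 and 13.1 CPM on day 19. The day 6 libraries lay far below the 6 others, which overlapped. KIF12 rose 9.36-fold from day 6 to day 16 (log2 fold change 3.23, SE 0.30, adjusted p = 0.000295) and 7.90-fold from day 6 to day 19 (2.98, SE 0.30, adjusted p = 0.000269), and both calls held under all 16 alternatives. For day 19 against day 16, its log2 fold change was -0.25 (SE 0.26, adjusted p = 0.567). The 8 epithelial markers summed to 702 to 777 CPM on day 6, 1130 to 1184 CPM on day 16 and 785 to 1274 CPM on day 19. Of these markers CLDN4, a tight junction protein, rose from day 6 to day 16 (2.50, adjusted p = 0.00623), KRT7, a keratin, fell (-1.84, adjusted p = 0.00136), and 6 were not called. By day 19, CLDN4 rose relative to day 6 (1.88, adjusted p = 0.0118), KRT7 fell (-0.72, adjusted p = 0.0472) and ESRP1, an epithelial splicing factor, fell (-1.16, adjusted p = 0.00576). In that comparison the CLDN4 call was lost without replicate 2 or 3 of day 6 (0.0518 and 0.0511), and its log2 fold change without replicate 2 of day 19 was 1.23. The KRT7 call was lost without any one library other than replicate 1 of day 19 (0.0513 to 0.158). The part of the epithelial share in the KIF12 values was not tested.

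KIF21A, which restrains microtubule growth at the cell cortex, fell from day 6 to later days. It was at 22.4, 20.6 and 21.6 CPM on day 6, at 10.5, 8.998 and 8.56 CPM on day 16 and at 7.97, 8.79 and 4.65 CPM on day 19. Every day 6 library was above every later library, and days 16 and 19 overlapped. KIF21A fell 2.30-fold from day 6 to day 16 (log2 fold change -1.20, SE 0.25, adjusted p = 0.0175) and 3.01-fold from day 6 to day 19 (-1.59, SE 0.26, adjusted p = 0.0027). The first call was lost without any one of the 6 libraries compared (adjusted p 0.0505 to 0.0789), and the second held under all 16 alternatives. KIF21B, its relative in neurons and lymphocytes, had means of 9.96, 6.88 and 3.66 CPM on days 6, 16 and 19 and was not called by edgeR with all libraries. DESeq2 called it lower on day 19 than on day 6 (adjusted p = 0.0442), voom called it lower than on either earlier day, and without replicate 1 of day 19 edgeR called it lower than on day 16 (-2.03, adjusted p = 0.0014).

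KIF28P, which is annotated as a pseudogene in some species, rose 3.54-fold from day 6 to day 19 at very low levels. It was at 0.464, 0.412 and 0.390 CPM on day 6, at 0.527, 0.797 and 1.44 CPM on day 16 and at 0.971, 1.30 and 2.33 CPM on day 19. The log2 fold change was 1.82 (SE 0.56, adjusted p = 0.0434), and the call was lost without any one library of day 6, replicate 1 or 2 of day 16 or replicate 2 or 3 of day 19 (adjusted p 0.0518 to 0.155), and with no count filter (0.0615). Its span overlaps AHCTF1 in the RefSeq gene table, and the handling of reads in overlapping genes is not given.

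KIF2A, a depolymerase of spindle poles that is also present in non-dividing cells, was at 21.1, 20.7 and 22.7 CPM on day 6, at 24.6, 23.5 and 22.4 CPM on day 16 and at 25.7, 12.5 and 14.7 CPM on day 19. It did not have the low day 16 level of KIF2C, which belongs to the same family. Its log2 fold change was 0.13 from day 6 to day 16 (SE 0.26, adjusted p = 0.868) and -0.41 from day 16 to day 19 (SE 0.26, adjusted p = 0.337), the latter called without replicate 1 of day 19 (-0.78, adjusted p = 0.00267). KIF26B, a divergent member without a working ATPase, had means of 17.5, 14.4 and 19.3 CPM on days 6, 16 and 19 and was not called. KIF25 had at most 0.389 CPM in any library and was not tested. Of the 7 other kinesins, 6 were tested, with 1 called higher and 1 lower from day 6 to day 16, 0 from day 16 to day 19 (0 at an unadjusted p under 0.05, 0 in DESeq2 and 2 lower in voom, beside 23.3% of all genes) and 2 higher and 1 lower from day 6 to day 19. These counts without replicate 1 of day 19 were 1 and 1, 0 and 2, and 2 and 3. Of all genes, the main fit called 5.12% higher and 3.74% lower, 0.516% and 0.683%, and 12.7% and 10.2% in the same order. The shares of all genes without replicate 1 of day 19 were 10.7% and 9.67%, 21.6% and 23.1%, and 27.2% and 27%.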

How the data were processed

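For each of 9 libraries of poly(A) RNA the authors deposited raw integer counts of reads per gene. Which aligner, counter, build and annotation they used, and whether strand was kept, is not given in the sources used here, so genes that overlap or resemble each other are uncertain one by one. All 39 members matched the RefSeq gene table of assembly ARS1.2, and 7 of the 38 placed there overlap another gene. These 7 are KIF4A, KIF23, KIF13B, KIF1C, KIF9, KIF17 and KIF28P. Libraries held 8712751 to 11074693 counts, and no 2 libraries of a day agreed within sampling noise (lowest chi-square per degree of freedom 9.855). Replicate 1 of day 19 stood furthest from the other libraries of its day, at 139.7 against replicate 2 and 123.9 against replicate 3. All other pairs within a day were at 9.855 to 37.4. The day 19 values with all libraries rest in part on that library.

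Differences between days were tested in R 4.3.3 with edgeR 4.0.16 (TMM scaling, filterByExpr, robust quasi-likelihood fit on the day over all 9 libraries). Adjusted p-values are Benjamini-Hochberg over 16098 genes. The common biological coefficient of variation was 0.318. The fit was also run on simulated counts with known changes, and the outcome is not given here. Alternatives were RLE scaling, no filter, at least 1 CPM in 6 libraries, DESeq2 1.42.0, voom with sample weights (limma 3.58.1), only the 6 libraries compared, a replicate block and each library left out.

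The members, role classes, partner lists and markers were chosen with earlier results of these data known. Values per library are given for KIF11, KIF20A, KIF23, KIF2C, KIF4A, KIF1A and KIF5B, every called member and the most counted member of each class, and up to 4 called genes of each partner list are named per comparison.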

Additional observations from a re-analysis of the deposited data

How the results depend on the processing

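With RLE scaling the 7 counts of called kinesins did not change, and with no filter 3 rather than 4 were higher on day 19 than on day 6. From day 6 to day 16 the main counts of 1 higher and 3 lower became 2 and 7 in DESeq2, and 3 were higher both in voom and with only the 6 libraries compared. Of all genes, 5.12% were higher and 3.74% lower in the main fit, 6.96% and 5.35% in DESeq2 and 12.5% and 11% in voom. From day 16 to day 19 the counts of 0 higher and 1 lower became 1 higher under the stricter filter, 4 higher in DESeq2, 3 higher and 8 lower in voom, and 0 lower with only the 6 libraries. All genes there gave 0.516% and 0.683% in the main fit, 5.67% and 4.78% in DESeq2 and 22% and 23.3% in voom. From day 6 to day 19 the 4 lower became 7 in DESeq2, 15 in voom and 2 with only the 6 libraries. The share of all genes lower was 10.2% in the main fit, 12.2% in DESeq2 and 29% in voom. Any difference among the days was called for 9 kinesins in the main fit (19.6% of all genes) and for 20 in voom. Voom also called more of all genes, at 29.4% higher and 29% lower from day 6 to day 19. The cause was not tested. Leaving out each library in turn gave 1 to 3 higher and 1 to 6 lower from day 6 to day 16, 0 to 4 higher and 0 to 8 lower from day 16 to day 19, 3 to 5 higher and 2 to 15 lower from day 6 to day 19, and 4 to 25 with any difference. The highest of each of these ranges came without replicate 1 of day 19, and the lowest count with any difference, 4, without replicate 1 or 3 of day 6. The fit without replicate 1 of day 19 called 10.7% of all genes higher and 9.67% lower from day 6 to day 16. Its shares were 21.6% and 23.1% from day 16 to day 19, and 27.2% and 27% from day 6 to day 19. Where no share of all genes is given beside a count, the count does not show whether the kinesins or all genes moved.

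The share of kinesin counts from mitotic members was 6.83%, 4.66% and 6.65% on days 6, 16 and 19 with KIF2A and KIF24 counted as mitotic. Without KIF20B, an alternative chosen after seeing the data, the day 16 share was 0.913%.

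With a replicate block the counts were 1 higher and 2 lower from day 6 to day 16, 0 and 0 from day 16 to day 19, 3 and 4 from day 6 to day 19, and 7 with any difference. The shares of all genes in that fit are not given here, so these counts cannot be set beside them. Libraries with the same number correlated at -0.164 to 0.153 in their deviations, with 1 of 9 pairs over 0.1. Those with different numbers correlated at -0.134 to 0.2. These values gave no sign of pairing, but with 3 libraries a day they cannot exclude it. Among kinesin calls, the block ended those of KIF20A on day 16 against day 6 (adjusted p = 0.0505), KIF28P and KIF3A on day 19 against day 6 (0.0653 and 0.0607), and KIF7 and both KIF1A rows on day 19 against day 16 (0.0972, 0.0786 and 0.0599).

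Some log2 fold changes near 0 changed sign. With one library left out in turn, KIF11 between days 16 and 19 ran from -0.74 to 0.16 (above 0 without replicate 2 of day 16) and KIF20B between days 6 and 16 from -0.017 to 0.53 (below 0 without replicate 2 of day 6). KIF3A between days 16 and 19 ran from -0.19 to 0.093 (0.053 without replicate 3 of day 16, the highest without replicate 3 of day 19). KIF3B between days 6 and 16 was 0.0037 with no filter and 0.0032 with only the 6 libraries, and ran from -0.035 to 0.050 (0.024 without replicate 1 of day 6, the highest without replicate 2 of day 16). KIF4A between days 6 and 19 was 0.37 in voom and ran from -0.58 to 0.20 (0.19 and 0.057 without replicates 1 and 3 of day 6, the highest without replicate 1 of day 19). KIF5B between days 16 and 19 was -0.0044 with no filter, -0.42 in voom and -0.044 with the replicate block, and ran from -0.43 to 0.23. It was below 0 without replicate 1 of day 6, replicate 2 or 3 of day 16 or replicate 1 of day 19, and the last of these, the lowest, was called. KIF5B between days 6 and 19 ran from -0.65, without replicate 1 of day 19, to 0.014, without replicate 3. Of the partner and marker genes called on day 19 against day 6, DCTN6, DYNC1I1, DYNLL1, IFT140, IFT20, IFT52, KRT7 and SNAP25 lost the call with only the 6 libraries compared, IFT52, KRT7 and SNAP25 also with no filter and IFT52 with RLE scaling. On day 16 against day 6, TOP2A lost it in voom and DYNC1I1 with no filter. Depth limits the rarest members: KIF14, KIF18B, KIF19, KIF2B and KIF25 had too few counts for the test.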
